A study of Mus musculus with 9 samples.

Results

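HuR (Elavl1) is an RNA-binding protein that recognises uridine-rich and AU-rich stretches, and this series measured which RNAs came down with it from mouse liver. The microRNA genes described here were chosen from the deposited exon table by name (Mirlet7, or Mir followed by a digit, host genes named hg left out) and by a gene-level value above 0 in at least 4 of the 6 pull-down libraries. Of 502 microRNA gene names in the table, 149 met the rule, among 33732 gene names in all. Sample groups of 3 kinds were labelled, all from whole healthy liver of wild-type C57BL/6 mice aged 8 weeks: RNA immunoprecipitation (RIP) with a HuR antibody (3 libraries), RIP with control IgG (3 libraries) and Input lysate RNA (3 samples, for which only a mean column was used). Each pull-down used 1 liver in native conditions, without crosslinking, and libraries were made with a total RNA kit. No sample was HuR-deficient, so the only background was the IgG pull-down. Apart from the livers, nothing in the sample labels describes how the replicates were separated. Marks in the deposited column names are given below.

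MicroRNAs are cut from long primary transcripts, first in the nucleus by Drosha and Dgcr8 into a hairpin and then in the cytoplasm by Dicer into a short duplex, of which 1 strand is loaded into an Argonaute protein. The loaded strand finds target mRNAs mainly through its seed, bases 2 to 8, and represses them. HuR mostly binds mRNAs and can compete or cooperate with microRNAs on a shared target, and in cultured human liver cells it has been linked to the relief of miR-122 repression. A gene value here is the read density over the annotated hairpin, so reads of the primary transcript, the hairpin and the mature strand cannot be told apart. In bulk liver, fewer cells of a type and less RNA per cell cannot be told apart either.

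The mature sequences below come from the highest and lowest seed families among those with at least 3 tested genes. The median fold change of HuR over IgG was highest in let-7 and then miR-15/16 among these families, and lowest in miR-29, miR-30 and miR-103 with miR-107. The families between them, miR-99/100, miR-26 and miR-125, had medians of 0.06, −0.34 and −0.43 and are not printed. The sequences come from RefSeq on GRCm38.p6, and the capitals mark the seed that places each in its family.
let-7a-5p: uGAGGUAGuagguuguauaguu
let-7b-5p: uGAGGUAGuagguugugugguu
let-7c-5p: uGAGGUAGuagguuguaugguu
let-7g-5p: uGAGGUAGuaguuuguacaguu
miR-15a-5p: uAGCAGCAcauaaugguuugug
miR-16-5p: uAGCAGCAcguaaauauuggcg
miR-103-3p: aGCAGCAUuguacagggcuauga
miR-107-3p: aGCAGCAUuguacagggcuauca
miR-30a-5p: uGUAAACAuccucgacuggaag
miR-30e-5p: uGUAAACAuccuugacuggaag
miR-29a-3p: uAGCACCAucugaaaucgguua
miR-29b-3p: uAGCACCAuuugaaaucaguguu
Of the 149 genes, 132 had a mature entry and 123 a hairpin entry in the RefSeq tables, and 35 shared a mature sequence with another hairpin, so a mature read of those could have come from either copy. Mir122, Mir145a and Mir328 are described below by value only.

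The library totals behind the RPKM values were recovered from the steps between low values. They were 26613000, 26328000 and 26911000 reads in HuR libraries 1 to 3, against 15856000, 26655000 and 28828000 reads in IgG libraries 1 to 3. The summed RPKM of 10 hepatocyte markers was 862 to 985 in the HuR libraries and 304 to 800 in the IgG libraries, against 797 in Input. The deposited column names add M to replicates 1 and 2 and F to replicate 3, but Xist stood at 10.2 RPKM in HuR 2 and 0.463 RPKM in HuR 3, and the Y-linked Ddx3y at 0.0188 RPKM in HuR 2 and 2.04 RPKM in HuR 3. The letters of those 2 libraries therefore go against their RNA, and no comparison here uses sex. Every library column name also holds a serial number, and those of IgG 2 and IgG 3 alone add an r to it. The meaning of the r was not given. IgG 1, the smallest library, stood apart in small structural RNAs, as given with those genes below.

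Most detected microRNA genes rested on few reads. Over the 6 pull-down libraries together a gene had 2 to 333985 reads, with a median of 44.0. Of the 149 genes, 42 had fewer than 20 reads in all, 46 had at least 100. Of the 149, 105 were above 0 in all 6 libraries, while 137 of the 502 names were at 0 in all 6. Reads are not independent molecules, so these numbers and the floors given below cover counting error only. At the edge of the rule, the 26 genes above 0 in exactly 4 libraries had mean levels of 0.149 to 9.97 RPKM (highest in Mir682, Mir6946, Mir8112 and Mir690). The 22 genes just outside it, above 0 in exactly 3 libraries, had means of 0.163 to 3.61 RPKM (highest in Mir5116, Mir149, Mir144 and Mir199a-1).

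Mir6236, on chromosome 9 (110281287 to 110281409, plus strand, build mm10), outweighed every other member in all 6 libraries. It had 19051, 28774 and 14273 RPKM in the HuR libraries, against 9545, 21809 and 11586 RPKM in the IgG libraries and 8256 RPKM in the Input mean. The groups overlapped, and the log2 fold change was 0.57 ± 1.03 (SE, limma adjusted p = 0.70). These values are read densities over the annotated hairpin and do not show that the mature microRNA was this abundant. Mir6236 overlaps no structural RNA gene by the annotation. All other members of that kind together took 115, 115 and 138 RPM (reads relative to the library total) in the HuR libraries, against 298, 114 and 133 RPM in the IgG libraries.

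Mir122, the dominant microRNA of hepatocytes, was the fourth by mean RPKM. It had 364, 331 and 752 RPKM in the HuR libraries, against 527, 511 and 588 RPKM in the IgG libraries and 64.6 RPKM in the Input mean. All 6 pull-down libraries lay above Input, and HuR and IgG libraries overlapped (log2 fold change −0.27 ± 1.06, limma adjusted p = 0.86). Mir192, also abundant in hepatocytes, had 25.3, 44.8 and 34.2 RPKM in the HuR libraries, against 84.3, 55.2 and 142 RPKM in the IgG libraries and 11.1 RPKM in Input. Every HuR library was below every IgG library, while the log2 fold change of −1.35 ± 1.04 missed the threshold (limma adjusted p = 0.35). Mir126b, whose hairpin lies on the strand opposite Mir126a so that the 2 genes share the same reads, had 28.5, 32.3 and 49.97 RPKM in the HuR libraries, against 69.6, 59.1 and 73.4 RPKM in the IgG libraries. Mir6240 had 49.5, 11.7 and 43.5 RPKM in the HuR libraries, against 82.5, 31.7 and 44.2 RPKM in the IgG libraries. It was also at 44.3 RPKM in Input. Of the remaining 7 of the 12 highest, 6 lie over a small nucleolar or Cajal body RNA gene and are given with that group. Mir3068, the seventh, had 164, 128 and 64.2 RPKM in the HuR libraries, against 1084, 94.2 and 49.6 RPKM in the IgG libraries (log2 fold change −0.64, and 0.69 without IgG 1).

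**Figure D1:**
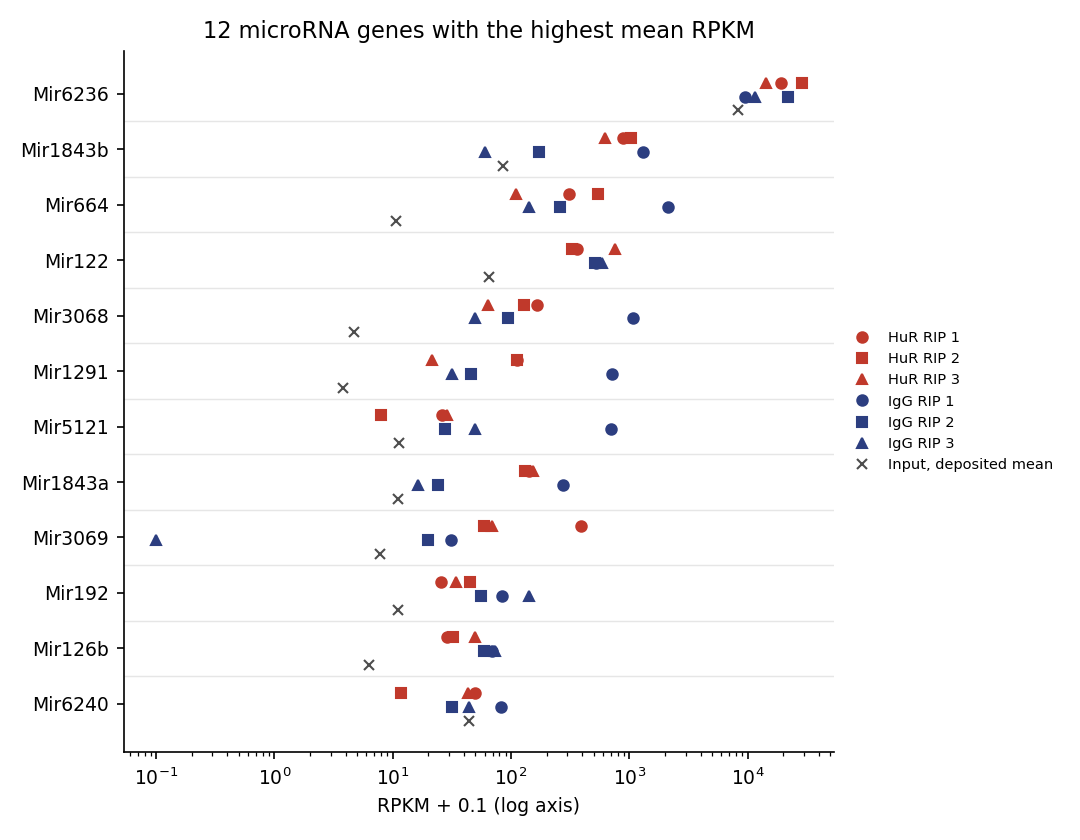
RPKM + 0.1 on a log axis for the 12 microRNA genes with the highest mean over the 6 pull-down libraries, with HuR RIP libraries (red) above IgG RIP libraries (blue) and the deposited Input mean (cross). Mir6236 lies far to the right of the others, HuR and IgG points overlap for most genes, and IgG 1 is the rightmost point for Mir1843b, Mir664, Mir3068, Mir1291, Mir5121 and Mir1843a.

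The HuR to IgG comparison asks which hairpin loci came down with HuR beyond the antibody background. It was fitted with limma on log2(RPKM + 0.5) over 5510 genes, those at 0.5 RPKM or more in at least 3 of the 6 libraries. Of the 149 microRNA genes, 137 passed this filter. Of these, 2 passed through the HuR libraries alone (Mir6238 and Mir124a-2), as did 570 of all genes (10.3%). None of the 137 was higher in HuR RIP and none lower at a Benjamini-Hochberg adjusted p below 0.05, against 0.672% of all tested genes higher (37) and 0.127% lower (7). After centring libraries on their medians, 1 gene was higher and 18 were lower, none of them a microRNA gene. The lowest adjusted p was 0.070, for Mir703. At an unadjusted p below 0.05, 5 microRNA genes were higher in HuR RIP (27.9% of all genes were) and 11 were lower (3.19% of all genes were). The 5 include Mir6238 and Mir124a-2, whose direction was set by the filter.

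Relative to the other genes that passed the filter, the hairpin loci sat low in HuR RIP. The sets were not chosen alike. The rule for microRNA genes left out those detected in the HuR libraries alone or the IgG libraries alone. The other genes had no such rule, and 570 of all tested genes (10.3%) passed the filter through HuR libraries alone, against 23 (0.417%) through IgG libraries alone. The part of this selection in the comparisons with all genes was not tested. The median log2 fold change of the hairpin loci was −0.42, against 0.92 over all tested genes, a difference of −1.34. The size of this difference depended on the settings. It was −2.07 with a pseudocount of 0.1, −0.99 with a pseudocount of 1 and −1.14 with quantile normalization. With no filter on low values the median of all genes was 0.09, and the difference was −0.51. The fold change was negative for 93 microRNA genes and positive for 44, whereas 79.1% of all genes were positive. Of the 137, 115 (83.9%) lay below the median of all genes. All 3 HuR libraries lay above all 3 IgG libraries for 6 microRNA genes, against 31.3% of all genes, and below them for 15 microRNA genes at 14 loci, against 3.48% of all genes. The 6 include Mir6238 and Mir124a-2, which passed the filter through the HuR libraries alone. RPKM divides by the library total, so a fold change is relative to the other RNAs in a library. When every library was centred on its own median, which shifts all genes alike, the median of all genes was −0.18 and that of the microRNA genes −1.52. Fold changes of low genes are understated on this scale.

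**Figure D2:**
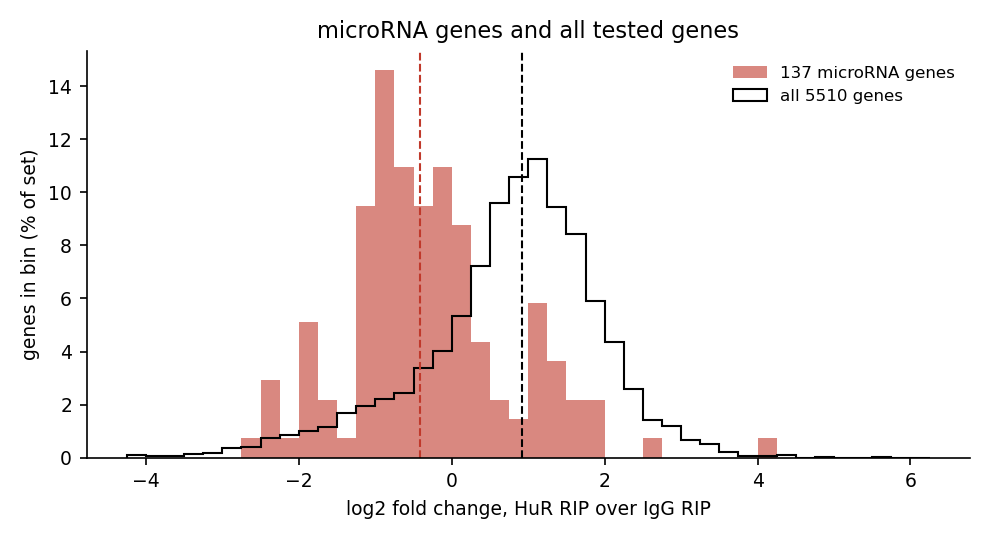
Share of genes per bin of 0.25 log2 units for 137 microRNA genes (red) and all 5510 tested genes (black line). Dashed lines mark the medians, −0.42 for microRNA genes and 0.92 for all genes, and the red bars lie mostly left of the black outline.

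Among genes whose groups did not overlap, the lowest fold changes belonged to microRNAs of several cell types. Mir145a, a smooth muscle and stellate cell microRNA, had 4.29, 3.798 and 6.37 RPKM in the HuR libraries, against 36.0, 17.7 and 34.2 RPKM in the IgG libraries and 3.23 RPKM in Input. Its HuR level was close to Input and its IgG level well above it, with a log2 fold change of −2.45 ± 0.89 (169 reads in all, limma adjusted p = 0.092). Mir574 had 1.93, 0 and 1.43 RPKM in the HuR libraries, against 4.85, 5.77 and 7.56 RPKM in the IgG libraries. The 0 in HuR 2 allows up to 1.46 RPKM (3 reads), and the log2 fold change was −2.28 ± 0.80 (limma adjusted p = 0.087). Mir140, best known from cartilage, had 0.268, 0.543 and 2.12 RPKM in the HuR libraries, against 5.41, 2.68 and 5.45 RPKM in the IgG libraries (log2 fold change −1.91 ± 0.78, limma adjusted p = 0.11). Mir328 had 0, 1.17 and 0.383 RPKM in the HuR libraries, against 5.85, 2.32 and 1.79 RPKM in the IgG libraries (log2 fold change −1.93 ± 0.74, limma adjusted p = 0.10). Mir99a had 1.73, 5.84 and 1.72 RPKM in the HuR libraries, against 15.5, 8.08 and 10.7 RPKM in the IgG libraries (log2 fold change −1.87 ± 0.83, limma adjusted p = 0.13). For Mir101a the gap rested on few reads (20.5 in all) and on IgG 1 (log2 fold change −1.82, and −0.96 without IgG 1), with 0.226, 0.229 and 0.672 RPKM in the HuR libraries, against 9.50, 0.904 and 1.46 RPKM in the IgG libraries. In these 6 genes every HuR library was below every IgG library, and none passed the adjusted threshold. The other genes of this kind were Mir192, Mir126a, Mir126b, Mir19b-1, Mir29b-1, Mir29b-2, Mir30b, Mir5099 and Mir6239.
miR-574-5p: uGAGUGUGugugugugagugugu
miR-140-3p: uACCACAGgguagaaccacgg
miR-99a-5p: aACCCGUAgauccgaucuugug
miR-101a-3p: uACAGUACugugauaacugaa
The 4 mature sequences are printed because their genes are those of the 6 above that have a RefSeq entry, and no pair of them shares a seed (capitals).

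Of the 6 genes whose HuR libraries all lay above the IgG libraries, Mir703 had the lowest p. It had 11.03, 17.4 and 12.6 RPKM in the HuR libraries, against 2.31, 1.38 and 1.59 RPKM in the IgG libraries and 2.02 RPKM in Input. The HuR libraries were tight and far from the IgG libraries, which stood near Input. The log2 fold change was 2.65 ± 0.80 (132 reads, limma adjusted p = 0.070). With 1 library left out it lay between 2.47 and 2.82, and the limma adjusted p was 0.043 without IgG 1 and 0.12 to 0.23 without any other library. The Mir703 hairpin is 109 bases long and holds the longest uridine run among the 123 member hairpins searched, 9 bases. It is printed here with 8 bases on each side because runs of this kind are what HuR is known to bind (chr5:98475587-98475611, minus strand, GRCm38.p6, run in capitals).
Mir703 uridine run: guggaccaUUUUUUUUUgugugugg
A run of UUUUUUU occurred in no other of these hairpins and in 0.995% of 1005 mouse hairpins searched, on the hairpin strand. The hairpin also matched transcripts of Eef1a1, translation elongation factor 1 alpha, over its whole length at 98.2% identity, and Gm26377, annotated as a microRNA, to the same extent. Gm26377 had 67.8, 81.5 and 37.1 RPKM in the HuR libraries, against 12.7, 5.73 and 1.28 RPKM in the IgG libraries (log2 fold change 3.50 ± 0.997). Eef1a1 itself had 13.4, 34.7 and 13.3 RPKM in the HuR libraries, against 14.4, 6.81 and 2.505 RPKM in the IgG libraries (log2 fold change 1.46 ± 0.92). The other tested genes similar to the hairpin, at 92.8% to 96.4% identity, did not all follow this pattern. Gm26384 was at 2.28, while Gm24951 (0.57) and Gm24276 (0.55) overlapped between the groups. Which copy gave the reads of Mir703 cannot be told apart here.

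The other genes of this kind were lower or less even. Mir3069 had 390, 58.7 and 69.5 RPKM in the HuR libraries, against 31.0, 19.6 and 0 RPKM in the IgG libraries. The 0 in IgG 3 allows up to 1.60 RPKM (3 reads), HuR 1 was far above the other HuR libraries, and the log2 fold change was 4.11 ± 1.37 (limma adjusted p = 0.085). Without HuR 2 the adjusted p was 0.023, without HuR 3 it was 0.049, without IgG 2 it was 0.23, and without IgG 3 the log2 fold change was 2.22 with an adjusted p of 0.28 (limma). Mir690 had 5.52, 1.39 and 1.36 RPKM in the HuR libraries, against 1.16, 0 and 0 RPKM in the IgG libraries (26.0 reads, log2 fold change 1.89 ± 0.73, limma adjusted p = 0.10, which was 0.048 without IgG 1 and 0.31 without IgG 2). Mir6238 had 0.583, 2.36 and 1.15 RPKM in the HuR libraries, against 0, 0.291 and 0 RPKM in the IgG libraries (15.0 reads, log2 fold change 1.56 ± 0.55, limma adjusted p = 0.089). Mir124a-2, a copy of a neuronal microRNA, had 9 reads in all. Both lie near the level that a few reads give. Both also passed the filter on low values through the HuR libraries alone, so their direction was set by the filter. The last was Mirlet7c-2, described with its family.

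The let-7 genes stood out from the other microRNA genes by direction. Let-7 restrains growth genes and Lin28 blocks the processing of its precursors, and in cultured human cells HuR has been reported to recruit let-7 to the Myc mRNA. All 11 detected let-7 genes had a positive log2 fold change (79.1% of all genes did). The values ran from 0.11 to 1.44 with a median of 1.005, beside the −0.42 of all microRNA genes and the 0.92 of all genes tested. None passed the threshold (limma, lowest adjusted p = 0.23, and none at an unadjusted p below 0.05), and 5 of the 11 lay below the median of all genes. Together they had 12.8, 8.36 and 20.4 RPM in the HuR libraries, against 6.002, 10.02 and 4.65 RPM in the IgG libraries. HuR 2 was below IgG 2 in this sum, so the groups overlapped, and HuR 3 was highest. The overlap depended on the scaling. Relative to the reads in listed exons only, the let-7 sums were 29.5, 29.9 and 33.8 RPM in the HuR libraries, against 11.1, 22.6 and 10.2 RPM in the IgG libraries, with no overlap. After centring on library medians the let-7 median was −0.10.

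Within the family, Mirlet7c-2 had 6.99, 7.60 and 13.4 RPKM in the HuR libraries, against 1.77, 6.71 and 2.07 RPKM in the IgG libraries, with no overlap (log2 fold change 1.44 ± 0.83, limma adjusted p = 0.23). Mirlet7b, its neighbour on chromosome 15, had 14.6, 21.002 and 27.5 RPKM in the HuR libraries, against 7.79, 19.0 and 5.92 RPKM in the IgG libraries. Mirlet7c-1 had 14.0, 23.8 and 39.9 RPKM in the HuR libraries, against 7.38, 16.8 and 11.1 RPKM in the IgG libraries. In each, HuR 3 was highest and IgG 2 reached into the HuR range or close to it. Mirlet7a-1 had 5.596, 7.27 and 28.9 RPKM in the HuR libraries, against 4.03, 7.98 and 3.69 RPKM in the IgG libraries, and Mirlet7a-2, Mirlet7f-1 and Mirlet7f-2 followed the same pattern. Mirlet7g, the most abundant at 81.6, 12.5 and 37.2 RPKM in the HuR libraries, against 24.4, 32.8 and 20.9 RPKM in the IgG libraries, was highest in HuR 1 instead (log2 fold change 0.39, and −0.24 without HuR 1). Mirlet7d, Mirlet7e and Mirlet7i had the lowest levels. Without HuR 3 the let-7 median fell to 0.33 and 9 of 11 genes were positive. Without IgG 3 it was 0.61, also with 9 positive.

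**Figure D3:**
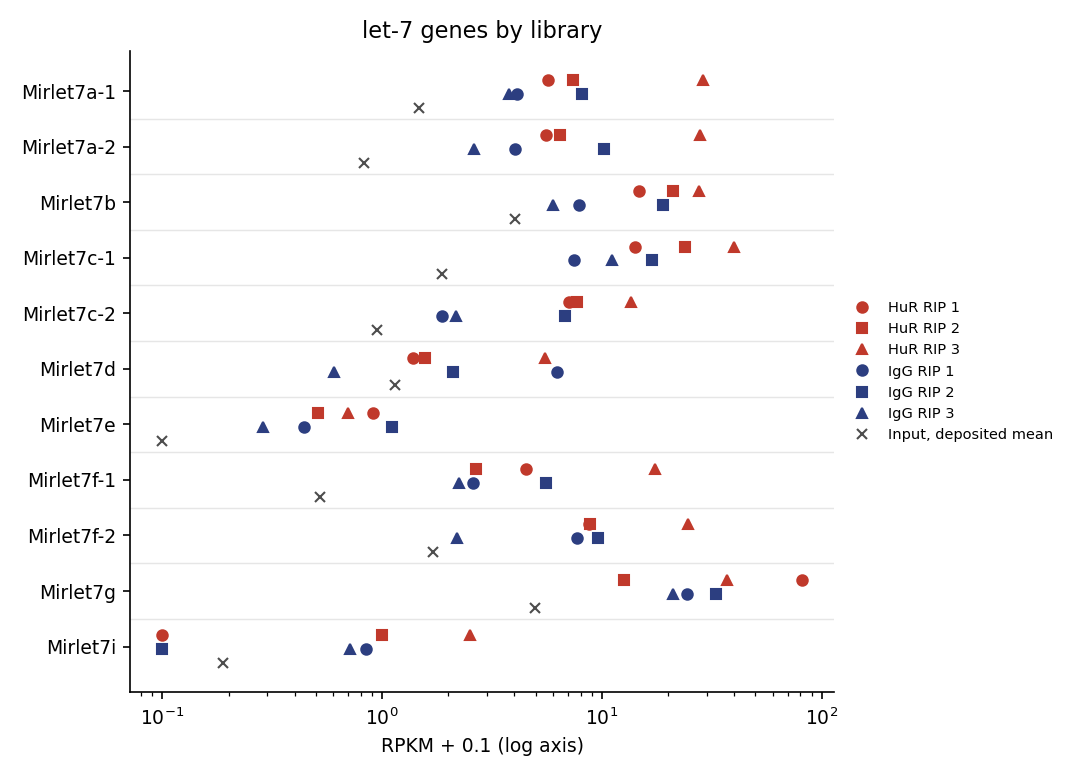
RPKM + 0.1 on a log axis for the 11 let-7 genes, with HuR RIP libraries (red) above IgG RIP libraries (blue) and the deposited Input mean (cross). The triangle of HuR 3 lies right of all 3 IgG points for most genes, while HuR 1 and HuR 2 mostly lie among or just right of them, apart from Mirlet7g, where HuR 1 is the rightmost point, and Mirlet7i, where HuR 1 is at 0.

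The other seed families were spread below let-7. The 5 genes of the miR-15/16 family, which restrain the cell cycle, centred on a log2 fold change of 0.10 (median) and ran from −0.78 (Mir15a) to 0.33 (Mir195a). The 3 tested genes with the miR-29 seed, known for repressing collagen mRNAs, were all negative with a median of −1.13. Mir29b-1 had 1.59, 1.07 and 5.23 RPKM in the HuR libraries, against 7.11, 5.28 and 11.7 RPKM in the IgG libraries, with a narrow gap between HuR 3 and IgG 2 (log2 fold change −1.61 ± 0.82, limma adjusted p = 0.18). Mir29a had 1.28, 0.863 and 7.18 RPKM in the HuR libraries, against 5.73, 4.69 and 5.52 RPKM in the IgG libraries, where HuR 3 was above all IgG libraries. The 4 genes with the miR-30 seed in the RefSeq table were all negative (median −0.74), and so were Mir103-1, Mir103-2 and Mir107 (median −0.72). In Mir30a and Mir107 the pattern was again a high HuR 3. Mir30a had 6.35, 3.74 and 29.3 RPKM in the HuR libraries, against 19.5, 19.6 and 22.0 RPKM in the IgG libraries. Mir107 had 0.432, 0.437 and 8.97 RPKM in the HuR libraries, against 2.17, 6.04 and 2.79 RPKM in the IgG libraries.

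**Figure D4:**
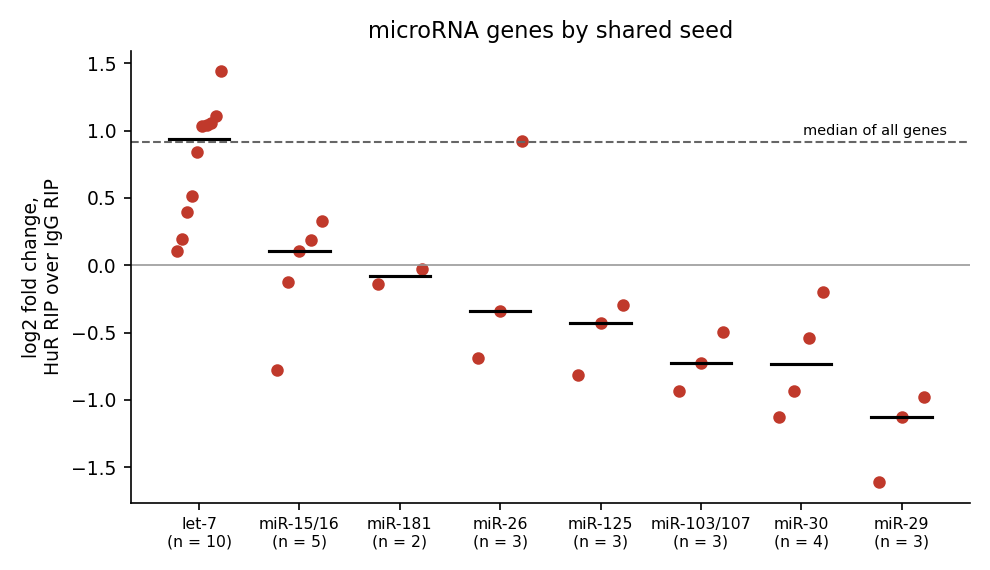
Log2 fold change of HuR RIP over IgG RIP for genes of 8 families grouped by shared seed (10 let-7 genes), 1 point per tested gene, with the family median as a bar. The miR-99/100 family (3 tested genes, median 0.06) is not drawn. The dashed line is the median of all tested genes (0.92), which let-7 straddles and which 1 other point, Mir26a-2 at 0.92, reaches.

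Neighbouring hairpins on the same strand did not always share a direction. Whether they come from a shared primary transcript was not tested. There were 17 clusters, with hairpins within 5 kb on the same strand, holding 41 members. In the Mir23b, Mir27b and Mir24-1 cluster on chromosome 13 all 3 genes were negative, from −1.25 to −1.10. In the paralogous Mir23a, Mir27a and Mir24-2 cluster on chromosome 8 they ran from −0.20 (Mir23a) to 1.28 (Mir24-2). Mir24-2 had 5.85, 10.7 and 8.68 RPKM in the HuR libraries, against 7.86, 2.51 and 1.30 RPKM in the IgG libraries. Mir24-1, which encodes the same mature miR-24-3p, had 0.967, 1.12 and 1.64 RPKM in the HuR libraries, against 7.47, 3.14 and 1.61 RPKM in the IgG libraries. The widest distances were in Mir99a and Mirlet7c-1 (−1.87 and 1.06, a spread of 2.93) and in Mir192 and Mir194-2 (−1.35 and 1.31, a spread of 2.66). Mir194-2, a hepatocyte microRNA next to Mir192 on chromosome 19, had 9.18, 27.4 and 4.75 RPKM in the HuR libraries, against 9.53, 3.93 and 1.61 RPKM in the IgG libraries. HuR 2 was its high library (log2 fold change 0.65 without it), and the difference between neighbours was not tested.

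Of the members, 10 overlap a structural RNA gene: Mir1843b (Scarna3a), Mir1843a (Scarna3b), Mir3069 (Scarna13), Mir6516 (Gm26083), Mir664 (Snora36b), Mir1291 (Snora34), Mir5121 (Snord33), Mir3084-1 (Gm23658), Mir3084-2 (Snora19) and Mir3535 (Gm24148). Small Cajal body RNAs and small nucleolar RNAs guide chemical modification of spliceosomal and ribosomal RNA. The fold change of each microRNA gene lay within 0.51 log2 units of that of the RNA it overlaps (median distance 0.033), since they share reads. IgG 1 was the highest IgG library in all 10 and the highest of all 6 libraries in 9 of them. Mir664 had 309, 542 and 111 RPKM in the HuR libraries, against 2138, 259 and 143 RPKM in the IgG libraries. Mir5121 had 25.8, 7.85 and 28.6 RPKM in the HuR libraries, against 696, 27.7 and 49.5 RPKM in the IgG libraries. Mir1291 had 112, 113 and 21.6 RPKM in the HuR libraries, against 717, 46.0 and 31.7 RPKM in the IgG libraries. Without IgG 1 the log2 fold change was 0.46 for Mir664 (−0.69 with it), 0.76 for Mir1291 (−0.64 with it) and −1.02 for Mir5121 (−2.42 with it).

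Mir1843b and Mir1843a lie over small Cajal body RNA genes. Mir1843b had 877, 1042 and 618 RPKM in the HuR libraries, against 1314, 172 and 60.7 RPKM in the IgG libraries. Mir1843a had 142, 130 and 155 RPKM in the HuR libraries, against 277, 23.9 and 16.4 RPKM in the IgG libraries. In both, the HuR libraries were even and lay above IgG 2 and IgG 3 but below IgG 1. The log2 fold change of Mir1843b was 1.78 with all libraries (limma adjusted p = 0.28), 3.01 without IgG 1 (limma adjusted p = 0.045) and 0.80 without IgG 3 (limma adjusted p = 0.71). That of Mir1843a was 1.55 with all libraries (limma adjusted p = 0.34), 2.81 without IgG 1 (limma adjusted p = 0.044) and 0.79 without IgG 3 (limma adjusted p = 0.70). The median of the 10 genes was −0.67 with all libraries. With 1 library left out it ran from −1.48 (without IgG 3) to 0.61 (without IgG 1), and it was 0.04 without HuR 3.

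Of the 149 members, 104 lie inside a longer gene on the same strand, and 56 of them over one of its exons. For 23 tested members outside structural RNA genes, the host was tested too (22 hosts, as Mir15a and Mir16-1 share Dleu2). The median log2 fold change over the hosts was 0.99, near that of all genes, and 18 of 22 were positive. The members inside them had a median of −0.54, and 5 of 23 were positive. In 22 of 23 pairs the microRNA gene lay below its host, and in 17 to 20 with 1 library left out. Over all 23 pairs the median difference of member minus host was −1.39 log2 units. All 3 HuR libraries lay above all 3 IgG libraries for 9 of 22 hosts and for none of the 23 members, against 31.3% of all tested genes. Of those hosts, Dleu2 and A330023F24Rik (host of Mir29b-2) passed the filter through the HuR libraries alone. The filter thus set their positive direction, and the pairs with Mir15a, Mir16-1 and Mir29b-2 are among the 22. The rule that chose the microRNA genes was not applied to the hosts.

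Pank1, a pantothenate kinase of coenzyme A synthesis that hosts Mir107, had 5.27, 7.19 and 6.05 RPKM in the HuR libraries, against 2.48, 0.559 and 0.263 RPKM in the IgG libraries (log2 fold change 2.31), while Mir107 was at −0.93. Pank3, host of Mir103-1, was at 1.97 and its member at −0.72. Rcl1, a factor of ribosomal RNA processing that hosts Mir101b, was at 2.47 and its member at −0.93. Vmp1, an autophagy gene whose end overlaps Mir21a, was at 1.29 and Mir21a at −0.10. Mir21a itself had 8.78, 5.16 and 15.1 RPKM in the HuR libraries, against 10.97, 13.05 and 6.03 RPKM in the IgG libraries, with full overlap. Egfl7, the endothelial host of Mir126a, was at 0.39 and Mir126a at −0.89. The exception was Mir135a-1, at 1.35 with its lncRNA host D030055H07Rik at −0.58. Mirlet7f-2 (1.11) and its host Huwe1 (1.16) lay together, as did Mir26a-2 (0.92) and Ctdsp2 (1.09). The 11 members in introns had a median of −0.69 and their hosts of 1.17. The 12 over a host exon, which share reads with it, had a median of −0.47 and their hosts of 0.64.

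**Figure D5:**
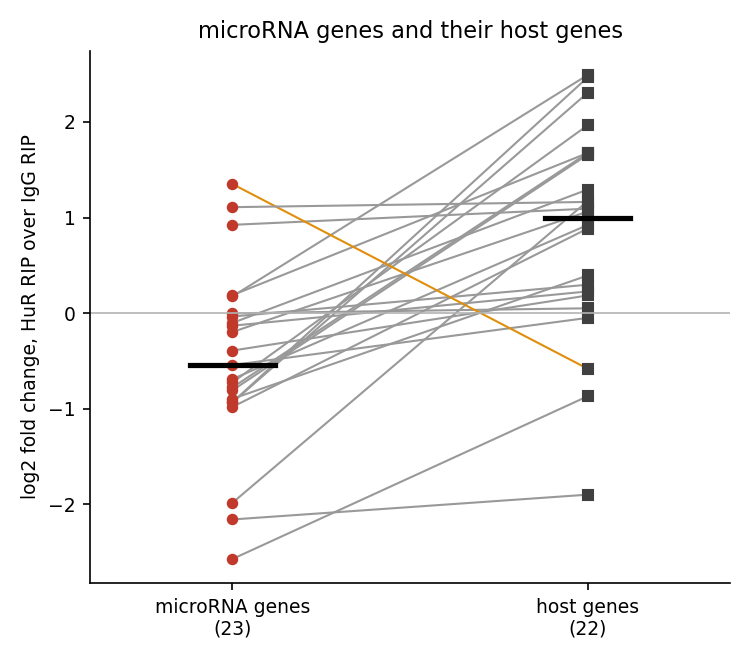
Log2 fold change of HuR RIP over IgG RIP for 23 microRNA genes (left) and their 22 host genes (right), joined by lines, with medians as black bars (−0.54 and 0.99). All lines but 1 (orange, Mir135a-1) rise towards the host.

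Lists of microRNAs known to be abundant in one cell type or tissue were low in HuR RIP relative to all genes. So were the tested microRNA genes in general, with a median log2 fold change of −0.42 and 32.1% positive (79.1% of all genes were). The list medians lay on both sides of that value. Of 30 tested members on a list of liver-abundant microRNAs, 7 were positive, with a median log2 fold change of −0.54, and 26 lay below the median of all genes. Mir148a (1.17), Mir194-2 (1.31), Mir24-2 (1.28) and Mir26a-2 (0.92) were its highest. Mir148a rested on 1 library, with 39.1, 1.92 and 0.751 RPKM in the HuR libraries, against 0.637, 2.65 and 2.45 RPKM in the IgG libraries (log2 fold change −0.34 without HuR 1). Mir26a-2 likewise had 59.5, 8.14 and 9.29 RPKM in the HuR libraries, against 9.01, 11.2 and 6.19 RPKM in the IgG libraries (0.02 without HuR 1). The 4 members of an endothelial list had a median of −0.70 (Mir126a, Mir221 and Mir222 negative, Mir10a at 0.09). The 7 tested members of a blood and immune list were all negative with a median of −0.35. With Mir144, a tested gene just outside the rule, the list had 8 tested genes, none of them positive, and a median of −0.38. Mir144 passed the filter through the IgG libraries alone, so its direction was set by the filter. Mir223, of myeloid cells, had 0.683, 4.72 and 2.59 RPKM in the HuR libraries, against 2.48, 4.32 and 3.78 RPKM in the IgG libraries. On a stellate and mesenchymal list of 8 genes, the 3 members, Mir145a, Mir143 and Mir214, were all negative with a median of −0.83. With Mir199a-1, a tested gene just outside the rule, the list had 4 tested genes, 1 of them positive, and a median of −0.75. None of these genes passed the adjusted threshold. Summed protein-coding markers of the same cell types overlapped between the groups. Lymphocyte and blood markers came to 25.3 to 85.2 RPKM in the HuR libraries and 44.1 to 131 RPKM in the IgG libraries. Of the 2 tested genes on this marker list, 1 was positive, and their median log2 fold change was −0.06. The other, Hbb-bs, a beta globin, was lower in every HuR library than in every IgG library, with a log2 fold change of −1.09 (limma adjusted p = 0.44). Endothelial markers came to 2.84 to 6.90 RPKM in the HuR libraries and 0.808 to 6.11 RPKM in the IgG libraries, and stellate markers to 2.34 to 11.8 RPKM in the HuR libraries and 0.801 to 5.62 RPKM in the IgG libraries. Their part in the microRNA values was not tested.

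A list of microRNAs linked to HuR in published work, as regulators, partners or targets, held 22 tested members with a median of 0.15. Of these, 13 were positive (59.1%, against 79.1% of all genes). The 10 let-7 genes on it were all positive, and Mir16-1 (0.19), Mir16-2 (0.10) and Mir195a (0.33) were near 0. Mir122 (−0.27), Mir21a (−0.10), Mir34a (−0.55), Mir125a (−0.81), Mir125b-1 (−0.43), Mir125b-2 (−0.30) and the miR-29 genes were negative. All 22 failed the adjusted threshold, and none reached an unadjusted p below 0.05.

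The mRNAs of the microRNA pathway were mostly too low to test. Of 15 genes on a list of nuclear processing factors, 6 were tested. All 6 had a positive log2 fold change (79.1% of all genes did), with a median of 1.78. None passed the adjusted threshold, and 4 had an unadjusted p below 0.05 with higher HuR levels (27.9% of all genes did). Srsf3 passed the filter on low values through its HuR libraries alone, so its direction was set by the filter. Srsf3, which helps Drosha pick its cleavage site, had 1.78, 1.97 and 1.91 RPKM in the HuR libraries, against 0.0865, 0.132 and 0.00679 RPKM in the IgG libraries (log2 fold change 2.06 ± 0.59, limma adjusted p = 0.062). The helicases Ddx17 and Ddx5 that assist Drosha were at 2.14 and 1.93, Khsrp, which binds let-7 precursors, at 1.63, and Srrt at 0.42. The exporter Xpo5 was listed at 0 in all 6 pull-down libraries and at 0.251 RPKM in the Input mean. Of the Argonaute and silencing list, 9 of 17 genes were tested, 8 were positive (79.1% of all genes were) and 6 had all HuR libraries above all IgG libraries (31.3% of all genes did), with a median of 1.08 and no call. Of the 9, Ago1 and Ago2 passed the filter through the HuR libraries alone. Ago2, the slicing Argonaute, had 0.783, 0.784 and 0.521 RPKM in the HuR libraries, against 0.362, 0.137 and 0.00269 RPKM in the IgG libraries (log2 fold change 0.87 ± 0.49). Ago1 was at 1.30, the decay helicase Ddx6 at 1.71, the deadenylase subunit Cnot7 at 0.60 and Snd1 at −0.30. Of the Dicer and tailing list only Zcchc6, a uridylating enzyme, was tested (0.79).

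Set beside the Input mean, the share of microRNA genes lay above that of all genes for IgG and near it for HuR. All 3 HuR libraries lay above Input for 88 of 137 members (64.2%, against 68.9% of all genes), and all 3 IgG libraries for 101 members (73.7%, against 20.7% of all genes). Mir122, Mir192 and Mir145a had all 3 HuR libraries and all 3 IgG libraries above Input. With at least 2 of 3 libraries above Input the counts were 119 for HuR (86.9%, against 88.8% of all genes) and 126 for IgG (92.0%, against 56.4% of all genes). The rule for microRNA genes required values above 0 in libraries of both groups, and the other genes had no such rule. Of all tested genes, 10.3% passed the filter through HuR libraries alone, against 1.46% of the tested microRNA genes. The part of this selection in the shares above Input was not tested. Input is a single deposited mean, so no test was made.

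Base composition was set beside the fold change as a description. Over 111 tested members with a hairpin sequence, which share libraries and differ in depth, Pearson's r between percent uridine and log2 fold change was −0.0038, and with percent GC it was 0.062. The motif UUUUU was found in 8 of 123 member hairpins (6.50%, against 9.15% of 1005 mouse hairpins), and the 7 tested had a median of −0.24. AUUUA was found in 3 (2.44%, against 5.27%), with a median of −1.22. Both were searched on the hairpin strand.

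The authors' deposited table holds its own p and q values for HuR against IgG by exon line. Over 152 lines of the members the lowest q in the authors' deposited table was 0.541, and 9 lines (5.92%) had a p below 0.05. Of all 136005 lines with a p in the authors' deposited table, 2.30% had a p below 0.05, and none had a q below 0.05.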

How the data were processed

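RNA immunoprecipitation libraries of mouse liver were read from 1 deposited table of exon lines. Per the table's column names, it holds RPKM for 3 HuR and 3 IgG libraries, a mean RPKM of Input, log2 ratios over Input, and the authors' p-values and q-values for HuR against IgG. Per the submitters' processing notes, the tools were Bowtie2 and featureCounts and the build mm10. Versions, strand setting and read length were not given in the sources used here. Decimal marks of the deposited RPKM values had been lost, and were restored by requiring each line's deposited log2 ratios to match log2((RPKM + 1)/(Input + 1)): of 138826 distinct lines, 138761 matched all 6 ratios and 65 matched 5. The ratio columns are numbered in file order, with 2 and 3 exchanged against the RPKM column names, which were followed.

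Exon values were summed to genes by length. Library totals (15856000 to 28828000 reads) came from the spacing of low values. At a tolerance of 0.05 reads, 84.0% to 88.5% of gene values were whole reads. The others were fractions, since reads over overlapping exons were split, also between strands. Hairpins were placed with GENCODE M21 and compared with its transcripts by blastn 2.17.0 (at least 90% identity over 50% of the hairpin). Genes at 0.5 RPKM or more in at least 3 of 6 libraries were tested with limma 3.58.1 in R 4.3.3 on log2(RPKM + 0.5), with trended and robust moderation, no covariate, two-sided, Benjamini-Hochberg over 5510 genes and a threshold of 0.05. An exact permutation test of 3 against 3 cannot go below p = 0.10. The fit was tested on simulated data. No count model was run, because the deposited unit is not a count. Tables and figures used Python 3.11.15.

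The genes and lists were chosen with earlier results of these data known. Named genes were the 12 highest by mean RPKM, the 6 highest and 6 lowest fold changes without overlap between groups, members on lists, in clusters or over structural RNA genes, and the edge of the rule. Genes similar to Mir703 were named after their values were seen. Alternatives covered the pseudocount, filter, scaling, moderation, weights, replicate block and libraries left out.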

Additional observations from a re-analysis of the deposited data

How the results depend on the processing

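The count of microRNA genes called by limma was 0 in each direction except with sample quality weights (8 higher, 4 lower) and with 1 library left out (0 to 4 higher, 0 to 1 lower). Without IgG 1 it was 4 higher, without HuR 2 it was 1 higher, and without HuR 3 it was 1 higher and 1 lower. Over all genes, the counts of higher and lower calls were 37 and 7. They were 3 and 1 with a pseudocount of 1, 0 and 0 with no filter, 145 and 21 with a filter at 1 RPKM, 1 and 18 with median centring, 5 and 4 with quantile normalization, 4 and 1 with no trend, 2296 and 84 with sample quality weights, and 0 and 0 without both HuR 3 and IgG 1. With 1 library left out they ran from 0 to 724 higher (724 without IgG 1, 0 without IgG 2) and from 0 to 35 lower. The cause was not tested.

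With the replicate number as a replicate block, 0 genes were higher and 0 lower. Deviations of same-numbered libraries correlated at 0.138, 0.117 and 0.086, and each HuR library correlated best with the IgG library of its own number, which is a hint from the data only.

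The microRNA median stayed negative under every alternative, from −0.60 to −0.21 with 1 library left out, −1.52 with median centring and −1.09 with quantile normalization. It was −0.35 over the 65 tested members that overlap no exon of another gene and −0.39 over those with 20 or more reads, that set being chosen after seeing the data. The rule gave 171 genes at 3 libraries, 123 at 5 and 105 at 6, and 67 members overlap no exon of another gene. Members with all HuR libraries above all IgG libraries numbered 7 to 16 with 1 library left out and 21 without HuR 3 and IgG 1. Those below numbered 20 to 39 and 46. Fewer libraries separate more easily, and these counts were also added after seeing the data. With at least 2 of 3 libraries above Input the counts were 119 for HuR and 126 for IgG. Members below their host numbered 17 to 20 of 23 with 1 library left out. Over 81 named members and 16 alternatives, 103 of 1287 fold changes changed sign without a call, in 38 genes, and none reversed a call. Low read numbers limit single genes: 42 of 149 had fewer than 20 reads.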
